A study of Mus musculus with 16 samples.

Results

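The genes described here encode the enzymes that attach a polar group to drugs, dietary compounds, hormones, bile acids and reactive lipid products: UDP-glucuronosyltransferases (Ugt1 and Ugt2 genes), glutathione S-transferases (cytosolic Gsta, Gstk, Gstm, Gsto, Gstp, Gstt and Gstz genes and the membrane-bound Mgst genes) and sulfotransferases (Sult genes). Members were taken by gene symbol in both deposited tables, without use of any measured value. The rule found 65 of 22396 gene symbols, made up of 19 Ugt, 25 Gst and 21 Sult genes.

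RNA was sequenced from EpCAM+ cells sorted from the distal colon of 16 mice, which were 8 weeks old by the paper's text. EpCAM is a surface protein of epithelial cells. The control mice were Tnfr2-f/f, in which exon 2 of *Tnfrsf1b*, the gene of tumor necrosis factor receptor 2, is flanked by loxP sites, and the mice labelled knockout were Vil1::Cre;Tnfr2-f/f, in which a villin promoter drives Cre recombinase in intestinal epithelium. All 4 groups therefore carried the floxed allele, and the strain of the floxed line is not given in the sources used here. Water alone was given to 4 controls and 5 mice labelled knockout. Dextran sulfate sodium (DSS), which injures the colonic epithelium, was given for 6 days to 3 controls and 4 mice labelled knockout, with dissection at day 12. The labels give 3% DSS and day 12 for every mouse, whereas the paper's text has 3.5% and treats the uninjured mice as day 0. From DSS-treated colons the methods describe separating the injured regions before the tissue was processed.

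The labels give further splits. All 7 mice given DSS were female, with 2 in cage c and 5 in cage d. Of the 9 water-treated mice, the 4 males shared cage a and the 5 females cage b. Treatment therefore cannot be told apart from cage, table or region sampled, and sex cannot be told apart from cage. *Tnfrsf1b* did not separate the genotypes in either treatment. Its level, in TPM rescaled over all mice, ranged from 10.8 to 19.3 in DSS-treated controls and from 11.3 to 22.7 in DSS-treated mice labelled knockout (log2 difference 0.14, SE 0.27, limma adjusted p 0.9997). The water-treated groups overlapped too, at 12.2 to 17.0 in controls and 9.82 to 16.4 in mice labelled knockout, with a lower estimate in the latter (log2 difference -0.23, SE 0.16, limma adjusted p 0.865). A deletion of 1 exon need not lower the summed level of the transcript, so this does not check the labels. *Epcam* was between 625 and 837 in every mouse, while the 8 epithelial markers together had a median DSS minus water difference of -0.38 on the log2 scale, with 2 of 8 above 0, and summed to a median of 5970 in water-treated and 4351 in DSS-treated mice. Summed leukocyte markers, however, ranged from 1727 to 16377 in water-treated mice and from 23.2 to 427 in DSS-treated mice. DSS control mouse 3 stood apart from the other DSS-treated mice, with *Muc2*, a goblet cell mucin, at 129 against 16 to 39.2.

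Conjugation is the second step of detoxification in the textbook scheme. Ugt enzymes transfer glucuronic acid from UDP-glucuronate in the endoplasmic reticulum, Sult enzymes transfer sulfate from the donor PAPS in the cytosol, and Gst enzymes join the tripeptide glutathione to electrophiles. Many of these genes are targets of Nrf2 (*Nfe2l2*), a factor that responds to oxidants and electrophiles and binds the antioxidant response element, and of the aryl hydrocarbon receptor (*Ahr*), which binds the xenobiotic response element. HNF1 factors are known regulators of Ugt1a genes in liver and gut. The gut epithelium is the first tissue to meet dietary substrates of these enzymes.

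The sequence before the RefSeq start is shown for 4 members that the results turn on: *Gsta3* and *Ugt1a6a*, higher after DSS, and *Gstt1* and *Mgst3*, lower after DSS. Each is the 250 bases before the RefSeq start (build GRCm38.p6), 5′ to 3′ on the strand of the gene. *Gsta3* lies at chr1:21240335-21240584 and *Ugt1a6a* at chr1:88134559-88134808, both on the plus strand. *Gstt1* lies at chr10:75797732-75797981 and *Mgst3* at chr1:167393842-167394091, both on the minus strand. The *Gstt1* stretch lies inside the gene as annotated in GENCODE M21 (75783813 to 75798584), so it is not sequence upstream of that annotated start. Capitals mark matches on either strand to the antioxidant response element core TGACNNNGC, the xenobiotic response element core GCGTG or the HNF1 site core GTTAAT.
Gsta3: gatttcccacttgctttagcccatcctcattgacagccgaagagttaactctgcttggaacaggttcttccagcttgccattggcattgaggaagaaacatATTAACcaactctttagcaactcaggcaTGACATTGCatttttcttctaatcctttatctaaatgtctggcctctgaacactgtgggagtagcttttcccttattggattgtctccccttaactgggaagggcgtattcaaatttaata
Ugt1a6a: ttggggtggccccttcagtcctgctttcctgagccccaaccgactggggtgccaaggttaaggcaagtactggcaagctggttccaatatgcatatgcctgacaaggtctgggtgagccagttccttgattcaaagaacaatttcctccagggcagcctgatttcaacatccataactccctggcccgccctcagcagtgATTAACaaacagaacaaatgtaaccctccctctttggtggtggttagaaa
Gstt1: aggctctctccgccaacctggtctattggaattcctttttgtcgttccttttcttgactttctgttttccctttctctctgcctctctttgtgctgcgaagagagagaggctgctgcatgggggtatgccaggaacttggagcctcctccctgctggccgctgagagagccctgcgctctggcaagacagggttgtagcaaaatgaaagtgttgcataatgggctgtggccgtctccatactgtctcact
Mgst3: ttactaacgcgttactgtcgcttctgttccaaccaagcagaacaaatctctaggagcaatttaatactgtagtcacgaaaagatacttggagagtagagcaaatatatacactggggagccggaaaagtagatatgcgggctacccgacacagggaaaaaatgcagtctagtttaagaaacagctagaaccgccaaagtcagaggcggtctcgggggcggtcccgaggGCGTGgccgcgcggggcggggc
*Gsta3* held a TGACNNNGC match 121 to 113 bases before the start and a GTTAAT match, on the opposite strand, at 149 to 144. *Ugt1a6a* held a GTTAAT match on the opposite strand at 50 to 45, *Mgst3* a GCGTG match at 22 to 18, and *Gstt1* none of these letters. The marked matches do not overlap each other. Among all 32851 RefSeq promoters, 10.2% held TGACNNNGC, 28.2% GCGTG and 6.43% GTTAAT in a window of the same length. Of the 65 members, 58 had a promoter entry.

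Levels are given as rescaled TPM, a share of transcripts corrected for transcript length, set on 1 scale over all 16 mice by median-of-ratios factors, with the mean ± SD over mice. Gst genes made up most of the summed TPM of the set. Of the 25 Gst genes, 22 had a mean of at least 1 and 18 of at least 10. Among the 19 Ugt genes, 6 reached 1 and 4 reached 10, and among the 21 Sult genes 5 reached both. In all, 13 members, 10 of them Sult genes, were listed at 0 in every mouse, and 19 more had a mean under 1. The 33 members with a mean of at least 1 are compared below, and the other 32 enter no count.

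**Figure D1:**
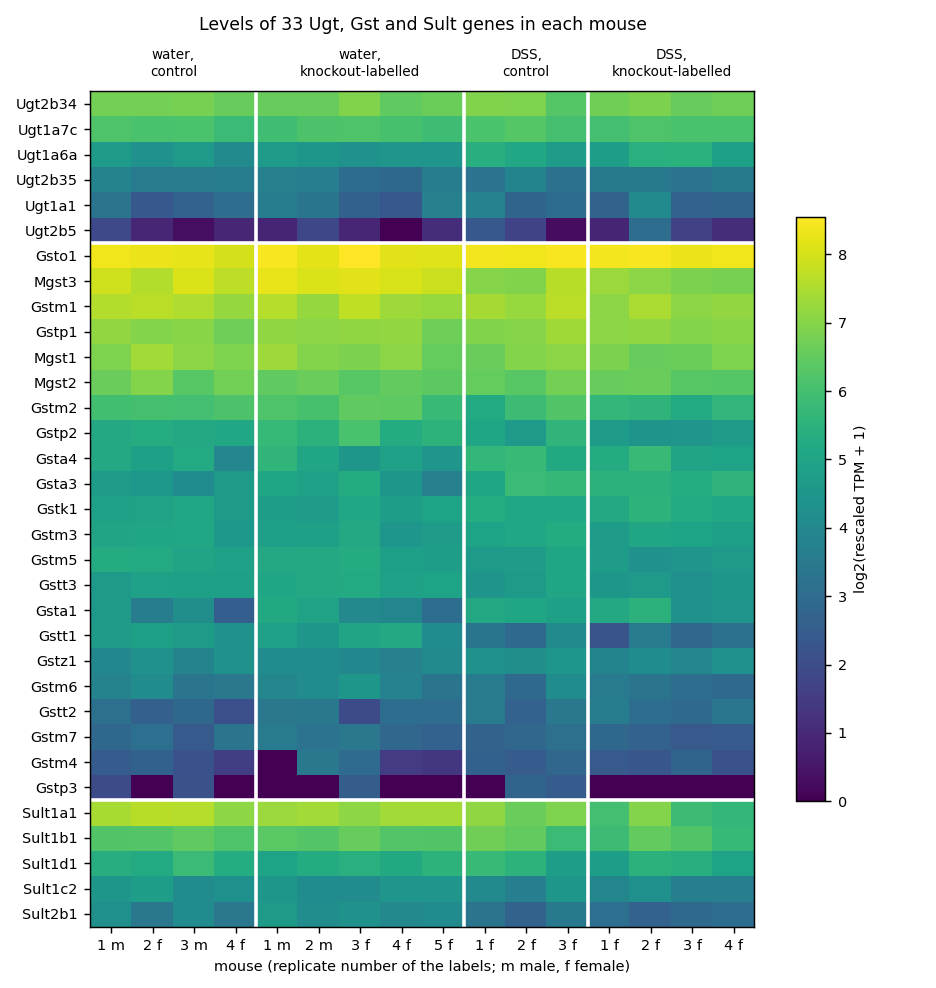
Level of the 33 members with a mean of at least 1 rescaled TPM (rows, grouped as Ugt, Gst and Sult and ordered by mean level) in each of the 16 mice (columns, by group, with replicate number and sex). Colour is log2(rescaled TPM + 1). Gsto1, at 257 to 374, is the brightest row, and Gstp3 is at 0 in 11 mice.

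Summed over the Gst genes, the level was 1464 ± 152 in water-treated mice (n = 9) and 1328 ± 138 in DSS-treated mice (n = 7). The Ugt sum was 209 ± 17.1 and 230 ± 30.4, and the Sult sum 320 ± 27.4 and 228 ± 61.0. The Sult sum ranged from 274 to 372 in water-treated and from 152 to 319 in DSS-treated mice, so that the groups overlapped.

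The order of levels among single genes was led by Gst genes. *Gsto1*, an omega-class enzyme with thioltransferase and dehydroascorbate reductase activity, was the highest member at a mean of 321 over all mice. Its lowest, median and highest values were 257, 299 and 374 in water-treated mice and 316, 335 and 351 in DSS-treated mice. *Mgst3*, a microsomal enzyme that also reduces lipid hydroperoxides, followed at 201, then *Gstm1* at 167, *Sult1a1* at 133, *Gstp1* at 130, *Mgst1* at 120, *Ugt2b34* at 103 and *Mgst2* at 91.4. *Sult1b1* (76.7), *Ugt1a7c* (67.3), *Gstm2* (60.5) and *Sult1d1* (39.3) completed the leading 12. The ranges of *Sult1a1*, *Gstp1* and *Mgst1* overlapped widely, so that their order is not fixed by these mice. The order over all mice was that of the water-treated means for the first 4 genes. After DSS *Gstm1* (158) stood above *Mgst3* (137), and *Sult1a1* (92.2) stood below *Gstp1* (134), *Mgst1* (111) and *Ugt2b34* (104).

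Within each family, a few genes held most of the level. *Ugt2b34* made up 48.5% ± 2.87 of Ugt TPM in water-treated mice and 45.2% ± 2.74 after DSS, and *Ugt1a7c* 31.6% ± 2.00 and 30.3% ± 2.81. *Sult1a1*, the main phenol sulfotransferase, made up 51.2% ± 3.55 of Sult TPM in water-treated and 39.4% ± 6.93 in DSS-treated mice, while *Sult1b1* made up 24.7% ± 2.59 and 32.8% ± 4.63. Of Gst TPM, the share of *Gsto1* was 21.2% ± 1.03 and 25.3% ± 1.71, and that of *Mgst3* 17.2% ± 1.94 and 10.3% ± 1.28. The *Mgst3* share ran from 12.5% to 18.8% in water-treated and from 9.00% to 12.4% in DSS-treated mice, without overlap. The same held for the shares of *Gstt1* (lower after DSS) and *Gsta3* (higher) in Gst TPM, and narrowly for *Ugt1a6a* (higher) in Ugt TPM. Such shares have no counterpart over all genes to set beside them.

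Several members share most of their sequence, and reads from such genes were divided between them by kallisto, so their single values are uncertain. Of the 31-base windows of the listed *Gsta1* transcript, 92.2% also occurred in another gene, mainly *Gm3776* (87.8%). For *Ugt1a6a* 96.1% occurred in *Ugt1a7c* and 54.4% in *Ugt1a1*, and for *Gstp1* 67.5% occurred in *Gstp2*. These shares count every annotated transcript of the other gene, not only the listed ones. Ugt1a genes join different first exons to shared later exons. *Gsto1*, *Mgst1*, *Mgst2*, *Gsta4*, *Gstm5*, *Sult1b1*, *Sult1d1* and *Sult2b1* shared 0% of such windows, and *Gstt1*, *Gsta3* and *Mgst3* shared 0.695%, 0.966% and 1.31%.

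Besides genes named by rule, *Gsta3*, *Gstp2*, *Gstm5*, *Gstm7*, *Gstt2*, *Gstt3* and *Sult1c2*, and the pathway genes *Gclm*, *Gclc*, *Gsr*, *Cndp2* and *Nfe2l2*, were chosen after their values were seen.

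The first comparison asks how the set differed between DSS-treated and water-treated colonic epithelium. No test was run, because the 2 tables were normalized separately. The set as a whole moved little: the median difference of the 33 members (DSS minus water, mean log2 of rescaled TPM + 1) was -0.06, beside 0.01 over the 11207 genes compared. The 7 DSS-treated and 9 water-treated mice did not overlap for 2 members, *Ugt1a6a* higher and *Gstt1* lower, or 6.06% of the members. Over all genes the share was 11.5% (4.49% higher and 7.04% lower). The difference between these shares was not tested, and their order changed with the scaling, since by rank within each mouse 18.2% of the members did not overlap beside 15.8% of all genes. Single members still differed by up to 2.99-fold, and the 3 Gsta genes compared lay above 0. All 5 Sult genes compared lay below 0, of which *Sult1b1* and *Sult1d1* turned positive under other scalings.

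**Figure D2:**
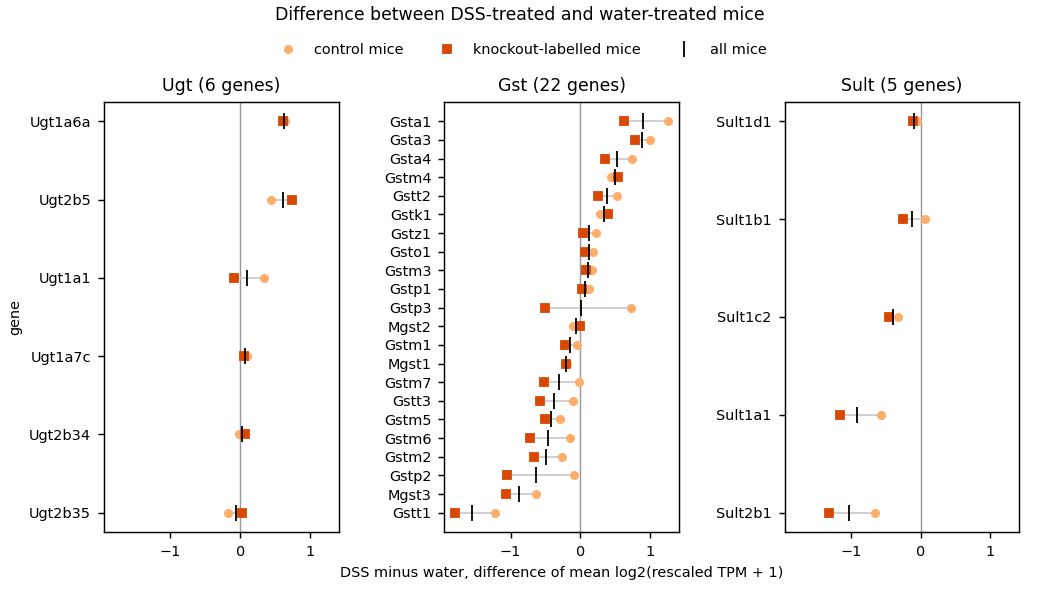
Difference between DSS-treated and water-treated mice (horizontal axis, DSS minus water in mean log2(rescaled TPM + 1)) for 6 Ugt, 22 Gst and 5 Sult genes (vertical axis). Circles are control mice, squares mice labelled knockout and bars all mice. The lowest bar is Gstt1 at -1.55, the highest are Gsta1 at 0.90 and Gsta3 at 0.88, and 28 of the 33 members (84.8%) have the same sign in both genotypes, beside 82.3% of all genes.

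*Gstt1*, a theta-class enzyme that acts on small halogenated and epoxide substrates, had the largest difference. On water the controls were at 24.6, 27.7, 24.5 and 20.1, and the mice labelled knockout at 28.6, 22.1, 30.9, 35.1 and 16.4. After DSS it was at 8.98, 6.52 and 15.7 in controls and at 3.62, 10.9, 6.00 and 8.13 in mice labelled knockout. Every DSS-treated mouse thus lay below every water-treated mouse, the nearest being DSS control mouse 3. The mean was 2.99-fold lower (25.6 ± 5.72 against 8.54 ± 3.90, log2 difference -1.55), and the difference was negative in each genotype (-1.22 in controls, -1.80 in mice labelled knockout). Ranked among all genes within each mouse, *Gstt1* stood on average at percentile 89.3 in water-treated and 76.3 in DSS-treated mice, and by rank the mice overlapped, as they did with TPM as deposited, equal sums and quantile normalization. Its chromosome 10 neighbours did not share the size of this difference, at -0.37 for *Gstt3* and 0.37 for *Gstt2*.

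*Mgst3* was also lower after DSS, with 1 mouse in the way of a full separation. It was at 246, 187, 274 and 207 in water-treated controls and at 304, 268, 285, 259 and 232 in water-treated mice labelled knockout. After DSS the values were 127, 121 and 199 in controls and 153, 133, 117 and 111 in mice labelled knockout. Only DSS control mouse 3, at 199, reached into the water-treated range, above water-treated control 2. The means were 251 ± 37.6 and 137 ± 30.3 (1.83-fold, log2 difference -0.88).

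The related microsomal genes differed less. *Mgst1* had means of 128 ± 21.7 and 111 ± 15.6 and *Mgst2*, which can also make leukotriene C4, 93.1 ± 14.2 and 89.2 ± 11.1. The directions of *Mgst1* and *Mgst2* turned positive under other scalings.

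Among the sulfotransferases, *Sult2b1*, which sulfates cholesterol and other hydroxysteroids, and *Sult1a1* were lowest after DSS relative to water. *Sult2b1* was at 18.5, 9.74, 16.6 and 9.47 in water-treated controls, 24.4, 17.3, 20.2, 15.3 and 16.6 in water-treated mice labelled knockout, 8.87, 5.57 and 9.91 in DSS-treated controls and 7.74, 5.46, 6.78 and 7.58 in DSS-treated mice labelled knockout (2.22-fold lower in the mean, log2 difference -1.02). Its overlap came from DSS control mouse 3 and the 2 female water-treated controls. *Sult1a1* was at 170, 199, 194 and 134 in water-treated controls and 154, 163, 135, 162 and 165 in water-treated mice labelled knockout, against 138, 95.7 and 117 in DSS-treated controls and 63.3, 124, 57.8 and 49.7 in DSS-treated mice labelled knockout. The means were 164 ± 22.2 and 92.2 ± 35.5 (log2 difference -0.91), and DSS control mouse 1 was the mouse that overlapped. *Sult1c2* (-0.40), *Sult1b1* (-0.12) and *Sult1d1* (-0.09) had smaller differences.

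The alpha-class glutathione transferases, which act on lipid peroxidation products, pointed the other way. *Gsta3* was at 25.6, 22.7, 16.4 and 24.4 in water-treated controls and 31.6, 28.7, 37.0, 22.2 and 12.1 in water-treated mice labelled knockout. After DSS it was at 32.5, 55.3 and 50.5 in controls and 44.5, 44.4, 37.8 and 45.8 in mice labelled knockout. The groups met only where water-treated knockout mouse 3 (37.0) exceeded DSS control mouse 1 (32.5), and the mean was 1.81-fold higher after DSS (24.5 ± 7.53 against 44.4 ± 7.55, log2 difference 0.88). By rank within each mouse the *Gsta3* values did not overlap. *Gsta4*, known for its action on 4-hydroxynonenal, ranged from 14.6 over a median of 28.5 to 47.4 in water-treated and from 30.1 over 37.4 to 54.3 in DSS-treated mice (log2 difference 0.52). *Gsta1* ranged from 4.87 over 15.2 to 36 and from 19.5 over 31.3 to 43.7 (log2 difference 0.90). Summed with *Gsta2*, *Gm3776* and *Gm10639*, which share its windows, the *Gsta1* group was at 24.2 ± 8.18 and 35.9 ± 9.07, a smaller difference of 0.58.

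**Figure D3:**
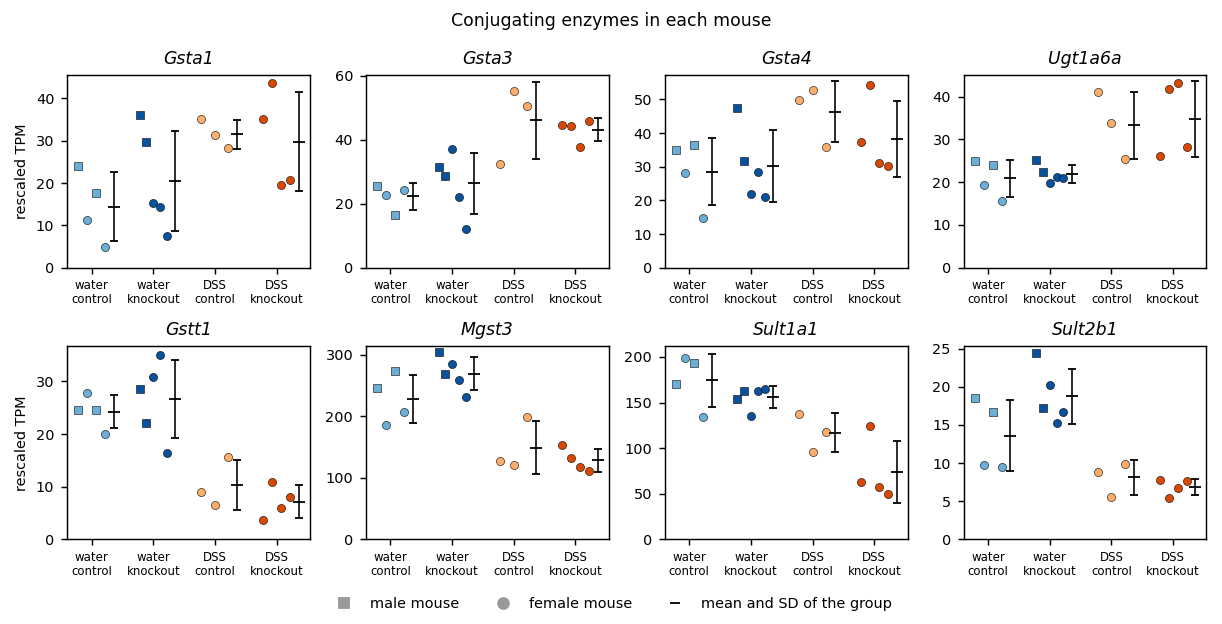
Rescaled TPM (vertical axis, from 0) of 8 members in each mouse by group (horizontal axis), with squares for males, circles for females, and the mean and SD of each group beside the points. Gstt1 in DSS-treated mice lies below every water-treated mouse (3.62 to 15.7 against 16.4 to 35.1), while Gsta1 in water-treated females lies below the males (4.87 to 15.2 against 17.7 to 36).

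*Ugt1a6a*, which glucuronidates planar phenols, was the member whose DSS-treated mice all lay above the water-treated mice, a separation that was lost when mice were scaled by the 8 epithelial markers. It was at 24.9, 19.3, 23.9 and 15.7 in water-treated controls and 25.1, 22.3, 19.7, 21.2 and 21.0 in water-treated mice labelled knockout. After DSS it was at 41.0, 33.8 and 25.3 in controls and 26.1, 41.8, 43.2 and 28.1 in mice labelled knockout. The gap was narrow, since the highest water-treated mouse (25.1) nearly reached DSS control mouse 3 (25.3). The mean was 1.59-fold higher (21.5 ± 3.04 against 34.2 ± 7.83, log2 difference 0.63). Summed with *Ugt1a6b*, whose sequence it shares, the level was 21.9 ± 3.08 in water-treated and 34.6 ± 7.63 in DSS-treated mice, without overlap (15.7 to 25.2 against 26.1 to 43.5). Summed over all 9 Ugt1a genes the level was 95.5 ± 7.84 and 113 ± 14.2 (log2 difference 0.24) and the mice overlapped. *Ugt1a7c* (0.07) and *Ugt2b34* (0.03) were at close to the same level in both treatments, at 65.9 ± 6.21 and 69.1 ± 5.05 for *Ugt1a7c* and at 101 ± 11.4 and 104 ± 15.6 for *Ugt2b34*.

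The mu-class genes lie side by side on chromosome 3 (107895821 to 108044894, GRCm38) and all 7 were expressed. Of these, 5 were lower after DSS and 2 higher, from -0.49 for *Gstm2* to 0.49 for *Gstm4*, and the negative differences of *Gstm1* and *Gstm7* turned positive under some other settings. *Gstm2* ranged from 53.0 over a median of 65.1 to 86.5 in water-treated and from 36.4 over 48.7 to 73.8 in DSS-treated mice, and *Gstm1* from 144 over 184 to 211 and from 132 over 149 to 203. The pi-class neighbours on chromosome 19 differed from each other, with *Gstp1* at 128 ± 16.2 and 134 ± 12.5 and *Gstp2* at 43.2 ± 11.1 and 27.9 ± 9.56. Their sum, which does not depend on how shared reads were divided between them, was 171 ± 21.8 and 161 ± 20.3. *Gstk1*, the kappa-class enzyme of mitochondria and peroxisomes, ranged from 24.4 over 28.5 to 33.7 in water-treated and from 33.1 over 34.7 to 44.7 in DSS-treated mice (log2 difference 0.34).

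These differences depended on scale and on single mice in the following ways. With TPM as deposited the median of all genes moved to 0.32 and that of the members to 0.27, and 6 members (*Gsta3*, *Gstk1*, *Gsto1*, *Gstp1*, *Ugt1a6a* and *Ugt1a7c*) did not overlap, all higher, beside 23.1% of all genes in either direction (18.9% higher and 4.16% lower). By rank within each mouse they were the same 6 members, beside 10.0% of all genes higher and 5.73% lower. Within controls alone 4 members did not overlap, beside 24.6% of all genes, and within the mice labelled knockout 11, beside 35.3%. Without DSS control mouse 3, 1 member was higher and 5 lower (*Gstm5*, *Gstp2*, *Gstt1*, *Mgst3* and *Sult2b1*), beside 12.2% and 12.0% of all genes. Without DSS control mouse 1, *Gsta3* joined the higher and *Sult1a1* the lower members, which made 4 (12.1%), beside 12.5% of all genes. Without water-treated control 2 or water-treated knockout mouse 3 the count was 3 (9.09%), beside 12.5% and 12.4%. Under every scaling and subset run, and whichever 1 mouse was left out, *Gstt1*, *Mgst3*, *Sult1a1* and *Sult2b1* kept a negative and *Gsta1*, *Gsta3*, *Gsta4*, *Gstk1* and *Ugt1a6a* a positive difference. A kept direction was not particular to these genes. Under the same scalings and subsets it also held for other members with smaller differences, among them *Gstp2*, *Gstm2*, *Gstm5*, *Sult1c2*, *Gsto1*, *Gstp1* and *Ugt1a7c*.

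Levels of cell type markers differed between the treatments. Of 14 leukocyte markers compared, 11 were lower after DSS without overlap (median log2 difference -4.06), and *Ptprc*, which encodes CD45, was at 8.14 to 31.9 in water-treated and at 0 to 4.13 in DSS-treated mice. Of the 18 listed markers, only *Cd8a* was at 0 in every DSS-treated mouse, and it was at 0 to 0.302 in water-treated mice. Goblet cell markers had a median difference of -1.74, absorptive colonocyte markers -0.95, stromal and endothelial markers -0.89 and proliferation markers 0.61. Enteroendocrine markers were at 0.39 and tuft cell markers at 0.00. Of 10 absorptive markers, 1 (*Clca4b*) was higher and 3 lower without overlap, beside 4.49% and 7.04% of all genes. The stromal and endothelial sum ranged from 261 over a median of 533 to 880 in water-treated and from 106 over 166 to 468 in DSS-treated mice. Their part in the differences of the conjugating enzymes was not tested, and in such bulk samples fewer cells of a type and less RNA per cell cannot be told apart.

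The second comparison asks whether the genotype label altered the set within a treatment, by limma on log2(TPM + 1) of each deposited table. After DSS, none of the 33 members was called at an adjusted p under 0.05, and 1 of the 10899 genes tested was (0.00918%). By unadjusted p under 0.05, 1 member passed, beside 2.65% of all genes, and for 0 members did the groups not overlap, beside 3.68%. Most differences were nonetheless on 1 side: 28 of 33 members were lower in the mice labelled knockout and 5 higher, where 52.8% of all genes were higher, and the median was -0.19 against 0.02. Without DSS control mouse 3 the split was 21 lower and 12 higher with a median of -0.08, so this lean rested partly on that mouse. Genes that share reads or a locus are not independent of each other, and no test was made of the lean.

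**Figure D4:**
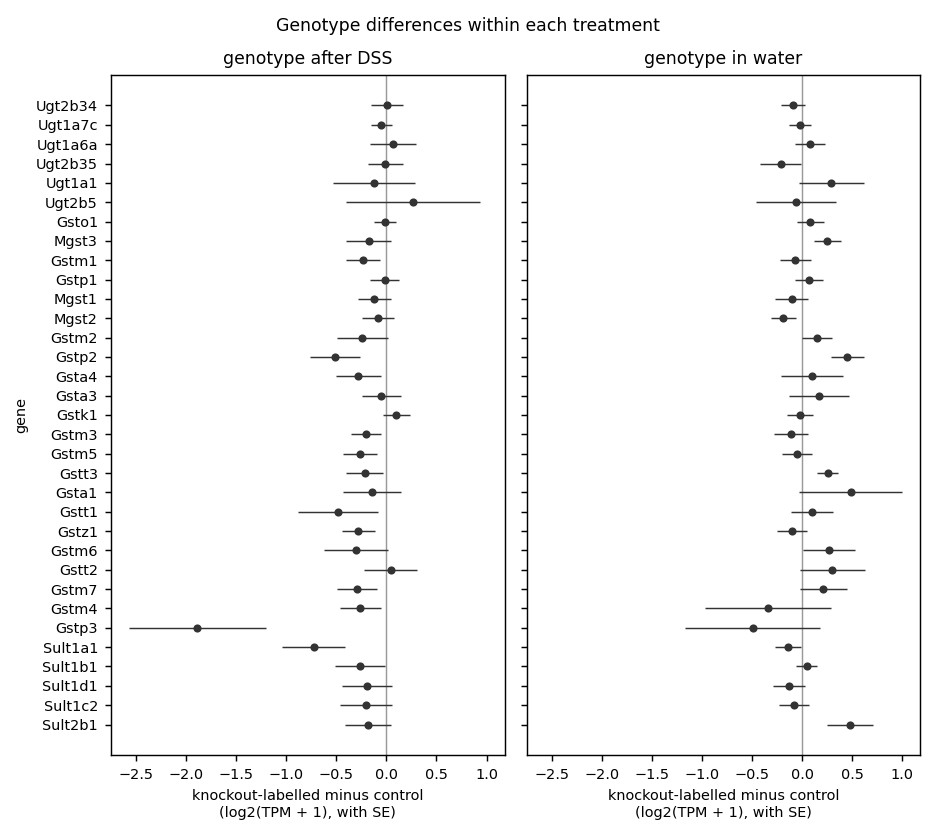
Genotype difference (horizontal axis, knockout-labelled minus control in log2(TPM + 1), with its standard error) for 33 members (vertical axis), after DSS on the left and in water on the right. After DSS, 28 points lie below 0, with Gstp3 at -1.89 and Sult1a1 at -0.73 farthest out, and in water 17 of 33 lie above 0. Gstp3 entered the fit after DSS only through controls above 0.

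*Gstp3*, a low pi-class gene, passed the unadjusted threshold. It was listed at 0, 5.73 and 4.66 in DSS-treated controls and at 0 in all 4 DSS-treated mice labelled knockout (log2 difference -1.89, SE 0.68, limma adjusted p 0.9997). Across all 16 mice it was above 0 in only 5. After DSS it reached the mean of at least 1 TPM needed for the fit only through the controls above 0. A lower level in the mice labelled knockout was thus set by that filter, and the p-values of *Gstp3* are not read as a result. Without DSS control mouse 1, which was at 0, its adjusted p was 0.071. *Sult1a1* was second, at 138, 95.7 and 117 in DSS-treated controls and at 63.3, 124, 57.8 and 49.7 in mice labelled knockout (log2 difference -0.73, SE 0.31, limma adjusted p 0.9997). Of the mice labelled knockout, 3 lay below every control and mouse 2 lay above 2 of them. The largest positive differences were those of *Ugt2b5* (0.27, SE 0.67) and *Gstk1* (0.10, SE 0.14).

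In the water-treated mice, 0 of 33 members were called among 11046 genes tested, of which 1 was (0.00905%). Unadjusted, limma passed *Gstp2* (0.45, SE 0.17) and *Gstt3* (0.25, SE 0.11), or 2 members beside 5.28% of all genes, and no member's groups were without overlap, beside 1.55%. The differences were balanced, with 17 of 33 above 0, beside 50.2% of all genes, and a median of 0.05. *Sult2b1* (0.48, SE 0.23) and *Gsta1* (0.48, SE 0.52) were the largest positive differences and *Gstp3* (-0.49, SE 0.68) and *Gstm4* (-0.34, SE 0.63) the largest negative ones, all at limma adjusted p between 0.865 and 0.930. On simulated data the fit recovered 30% of genes changed by log2 1 and 81% by log2 2 after DSS, and 55% and 81.5% in water, so that smaller genotype differences could have been missed.

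The third comparison set female mice of cage b against male mice of cage a within the water-treated mice, with genotype as a covariate, because all DSS-treated mice were female and several of these enzymes are known to differ by sex in liver. No member was called, beside 4 of 11046 genes (0.0362%). Unadjusted, limma passed 6 members, all lower in females, or 18.2% of the members beside 6.83% of all genes. The count was 4 without the genotype covariate, and 2 to 7 with 1 mouse left out. Of the 33 members, 10 were higher in females, beside 50.3% of all genes, and with 1 mouse left out 2 to 12 were. For 3 of the 33 members, *Gsta1*, *Gsta4* and *Ugt1a6a*, females and males did not overlap, beside 1.79% of all genes. Genes that share reads or a locus are not independent of each other, and these shares were not tested.

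*Gsta1* had the largest difference. The females were at 11.3, 4.87, 15.2, 14.3 and 7.59 and the males at 24.0, 17.7, 36 and 29.7 (female minus male log2 -1.37, SE 0.27, limma adjusted p 0.497). *Gsta4* was at 28.0, 14.6, 22, 28.5 and 21.0 in females and at 35.1, 36.4, 47.4 and 31.8 in males (-0.74, SE 0.21, limma adjusted p 0.669). *Ugt1a6a* was at 19.3, 15.7, 19.7, 21.2 and 21.0 in females and at 24.9, 23.9, 25.1 and 22.3 in males (-0.32, SE 0.11, limma adjusted p 0.704). All females were below all males in each of the 3 genes.

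Shared sequence bears on these values. With *Gsta1* summed over the genes that share its windows, females (14.6 to 29.2) and males (19.7 to 36.7) overlapped and the difference was -0.60. *Ugt1a6a* with only its highest transcript differed by -1.58. *Gsta4*, which shares no windows, was between -0.89 and -0.57 under every setting and with each mouse left out. *Mgst3* was lower in females by a smaller step (-0.27, SE 0.11), as were *Sult2b1* (-0.50, SE 0.17) and *Gstt2* (-0.68, SE 0.24), whereas *Mgst2* (0.09, SE 0.13) and *Gstm2* (0.09, SE 0.15) had the largest positive differences. Summed leukocyte markers overlapped between the sexes, at 3378 to 14776 in females and 1727 to 16377 in males.

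This split enters the treatment comparison, since all DSS-treated mice were female. Among female mice only, the DSS minus water difference was 1.48 for *Gsta1*, 0.84 for *Gsta4* and 0.77 for *Ugt1a6a*, against 0.90, 0.52 and 0.63 over all mice. In these 3 genes all water-treated females lay below all males, so leaving out the males had to raise the difference. It also eases non-overlap, and neither is separate support for a treatment difference. For *Gsta1* summed with the genes that share its windows, the female difference was not computed. With females alone, 3 members were higher without overlap (*Gsta1*, *Gsta4* and *Ugt1a6a*), beside 7.08% of all genes, and *Gstt1* was lower, beside 10.8%. For *Gstt1* and *Sult1a1* the female values, -1.55 and -0.86, were close to those over all mice.

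Genes that supply and clear the substrates of these enzymes were read from lists by role. Of 13 glutathione genes compared, 2 were higher after DSS without overlap (beside 4.49% of all genes) and 2 lower (beside 7.04%). *Gclm*, the modifier subunit of the rate-limiting enzyme of glutathione synthesis, ranged from 4.30 over a median of 14.2 to 18.7 in water-treated and from 19.3 over 27.5 to 34.7 in DSS-treated mice (log2 difference 1.00). *Slc7a11*, the cystine importer, ranged from 0.413 over 0.627 to 0.761 and from 1.26 over 3.55 to 6.02 (1.37). Its water-treated mean of 0.634 was under the minimum of 1, so it entered the comparison only through its level after DSS. The higher direction of *Slc7a11* thus followed from that filter. The catalytic subunit *Gclc* (17.2 ± 4.10 and 33.1 ± 5.46) and the reductase *Gsr* (34.4 ± 5.42 and 57.9 ± 8.80) were higher in the mean and overlapped. Of the 13 genes, however, only 6 had a difference above 0, and the median was -0.15. The list as a whole was thus not higher after DSS.

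The 2 lower genes were peptidases that act on glutathione breakdown products. *Anpep* ranged from 7.25 over 8.75 to 12.9 in water-treated and from 0.635 over 1.62 to 3.21 in DSS-treated mice (log2 difference -2.05), and *Cndp2* from 34.7 over 43.0 to 49.4 and from 16.6 over 17.6 to 25.2 (-1.12).

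**Figure D5:**
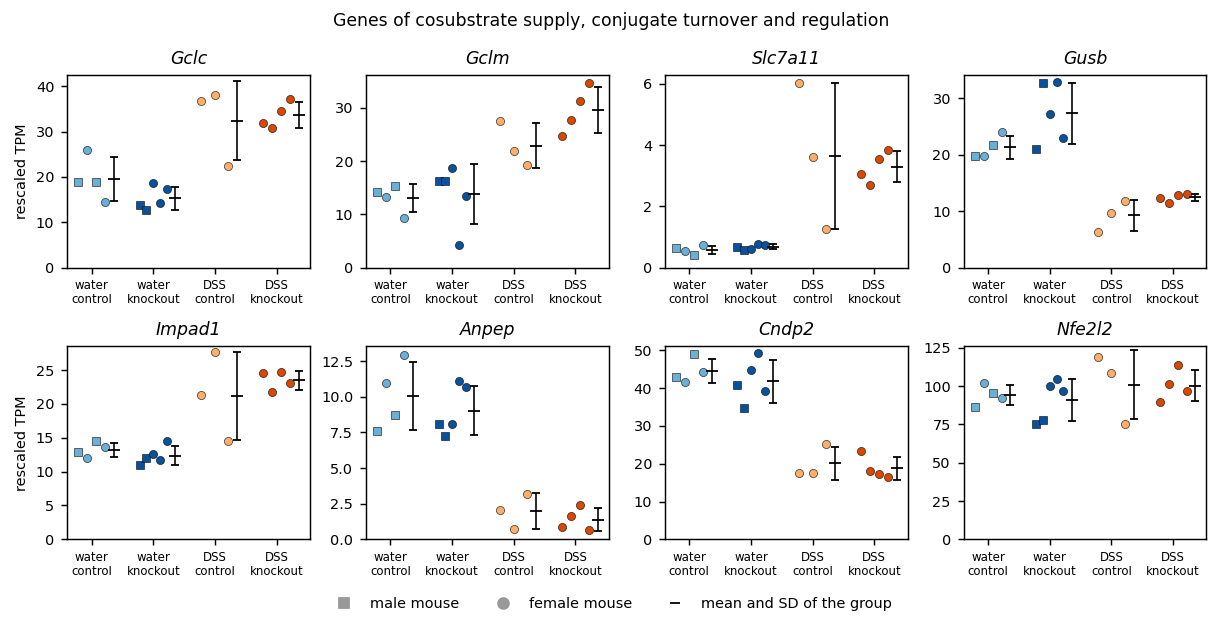
Rescaled TPM (vertical axis, from 0) in each mouse by group (horizontal axis) of 8 genes of cosubstrate supply, conjugate turnover and regulation, with squares for males, circles for females, and the mean and SD of each group. Gclm, Slc7a11 and Impad1 lie higher after DSS, Gusb, Anpep and Cndp2 lower, each without overlap between treatments, and Nfe2l2 overlaps. Slc7a11 reached the minimum mean of 1 only through its level after DSS.

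The other lists are read beside the 11.5% of all genes whose mice did not overlap in either direction, and no list was tested against another. Of 6 UDP-glucuronate genes compared, *Gusb*, the lysosomal glucuronidase that removes the conjugate, was lower (19.8 to 32.9 against 6.31 to 13.0, log2 difference -1.09), and *Slc35d1* had the largest positive difference (0.81, with means of 0.901 and 2.37). *Slc35d1* reached the minimum mean of 1 only through its level after DSS. Of 9 PAPS genes, *Impad1*, a phosphatase that degrades the nucleotide left after sulfation, was higher (10.9 to 14.5 against 14.6 to 27.6, 0.76), and *Slc35b2*, a Golgi PAPS transporter, overlapped (-1.06). None of 10 efflux genes or 15 regulators was without overlap. *Abcc4*, an exporter of conjugates, differed by 1.47 and *Rala*, a small GTPase, by 0.80, each with overlap. Among regulators, *Nfe2l2* was at 92.4 ± 10.6 and 101 ± 14.9, *Nr1h4*, the bile acid receptor FXR, differed by 1.09 and *Hnf4a* by -0.78. Of 11 related enzymes outside the naming rule, *Alox5ap*, which presents arachidonic acid for leukotriene synthesis and is mostly known from leukocytes, was lower (9.88 to 23.7 against 1.70 to 5.82, -1.84), and *Inmt*, a methyltransferase, overlapped (-1.43). *Inmt* reached the minimum mean of 1 only through its level in water-treated mice. The summed leukocyte markers moved with *Alox5ap*, and their part in it was not tested. In no list was a gene called between genotypes or in the female and male comparison.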

How the data were processed

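The authors deposited 1 table of TPM per treatment, made with kallisto (0.44.0 by the methods) and sleuth. The submitters' processing notes name mm10, and the transcript release is not given in the sources used here. Reads were stranded, polyA selected and 75 bases long. The tables hold whole-series columns of the authors' own comparisons (p-values, q-values, fold ratios and mean log counts), which were not used. No counts were given, so the depth behind each TPM value is unknown, and summed TPM was 487469 to 861109 per water-treated and 539359 to 662142 per DSS-treated mouse.

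Repeated lines (385) were dropped and TPM was summed per gene. Levels and the DSS against water differences used median-of-ratios factors over 9936 genes (0.905 to 0.940 for water, 1.13 to 1.24 for DSS). Treatment was compared by non-overlap of mice and by differences of mean log2(rescaled TPM + 1), for genes with a mean of at least 1. Within a table, limma 3.58.1 (R 4.3.3) was run on log2(TPM + 1), a scale that understates changes of low genes, with Benjamini-Hochberg adjustment over all genes tested and a threshold of 0.05. Replicates were separate mice. The fits were tested on simulated data with 200 changed genes. Tables were handled with Python 3.11.15, pandas 2.3.3 and numpy 2.4.6. Shared 31-base windows came from GENCODE M21 transcripts, in which all 78 member transcripts were found, and promoters from RefSeq.

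The symbol pattern and the lists were chosen with earlier results of these data known, and members then followed from the symbol alone. The naming rule took the 12 highest members, any member called by limma, the 2 largest differences in each direction per limma comparison, up to 5 members per direction without overlap between treatments, the targeted gene, and from each pathway list the called genes or else the 2 largest differences. Alternatives were other scalings, pseudocounts (0.1), minimum levels (5 TPM), subsets of mice, covariates, a replicate block, and leaving out each mouse. Scaling by 8 epithelial markers and the restriction to cage d were chosen after seeing the data.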

Additional observations from a re-analysis of the deposited data

Results flagged for a closer look

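In 80 tests of whether 1 mouse lay far from the rest of its group, 6 values did, where chance alone gives about 1 in 20. The 3 DSS-treated controls were too few for this test and were left out, so DSS control mouse 3 could not be flagged. Among water-treated mice labelled knockout, mouse 5 had *Gstp1* at 101 against 132 to 142 in the other 4, and mouse 3 had *Gstp3* at 4.78 where the others were listed at 0. Among water-treated controls, mouse 4 had *Ugt2b34* at 93.4 against 109 in the others and a summed Gst level of 1245 against 1459 to 1498, and mouse 3 had *Sult1d1* at 56.3 against 36.4 to 39.0. Among DSS-treated mice labelled knockout, mouse 3 had *Gsta3* at 37.8 against 44.4 to 45.8.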

How the results depend on the processing

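The treatment comparison has no test, and TPM without counts limits what can be said of low genes. The count of members whose mice did not overlap between treatments was 2 (6.06%), beside 11.5% of all genes. It was 6 (18.2%) with TPM as deposited, by percentile rank, with quantile normalization and with cage d only. All genes were then at 23.1%, 15.8%, 15.3% and 27.6%. It was 3 (9.09%) with equal sums (*Gstt1* lost, all genes 15.2%) and with epithelial scaling (*Ugt1a6a* lost, all genes 8.07%). In females and in controls it was 4 (12.1%), beside 17.8% and 24.6%, and in mice labelled knockout 11 (33.3%), beside 35.3%. With 1 mouse left out it was 2 to 6, beside 11.6% to 24.2% of all genes. The median difference of members (-0.06) was 0.27 with TPM as deposited, 0.31 with equal sums, 0.22 with quantile normalization and 0.21 with epithelial scaling, and 0.42 percentile points by rank, while the median of all genes moved to 0.32, 0.36, 0.18, 0.26 and 1.15. In every limma comparison 0 members were called under each setting. The replicate block also gave 0 members called. Same-numbered mice correlated between -0.20 and -0.03 after DSS and between -0.08 and 0.09 in water, so the numbers were not taken to pair the mice. The smallest member adjusted p was 0.0709, for *Gstp3* after DSS without control 1. *Gstp3* passed the minimum level there only through controls, so this value is not read as a result. Directions reversed with 1 mouse left out for *Ugt2b5* by genotype after DSS (0.27, range -0.35 to 0.74), *Gstm4* by genotype in water (-0.34, range -0.72 to 0.10) and *Mgst2* by sex (0.09, range -0.0115 to 0.17), and the cause was not tested. The *Ugt1a6a* sex difference (-0.32) was -1.58 with its highest transcript only.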
